A study of Mus musculus with 4 samples.

Results

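The Slc2a genes encode the GLUT family of membrane proteins, and 10 of them (Slc2a1, Slc2a2, Slc2a3, Slc2a4, Slc2a5, Slc2a6, Slc2a8, Slc2a9, Slc2a10 and Slc2a12) were followed in brown and white fat of WT and ASK1-deficient mice. Their probes were found by gene name, which gave 11 of the 55681 probes and 10 of the 22066 genes on the arrays. The family was chosen by the measured genotype values of Slc2a5, which lay in opposite directions in the 2 fats, so those values are given as a description. Slc2a7 and Slc2a13 were on the arrays too but were kept apart, among the other sugar transporters.

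GLUT proteins let sugars cross membranes down their gradient, without using energy. In fat, GLUT1 serves basal glucose uptake and GLUT4 the uptake that insulin drives, for which GLUT4 is moved from storage vesicles to the cell surface. GLUT5, the product of Slc2a5, carries fructose. Other members lie on inner membranes or carry mainly something other than glucose, such as urate for GLUT9.

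RNA was measured in interscapular brown adipose tissue (iBAT) and epididymal white adipose tissue (eWAT), with 1 one-colour Agilent array for each tissue and genotype. Each array held RNA pooled from 3 male mice aged 10 weeks, of the C57BL/6J background and without stimulation. ASK1 was lacking in the whole body of the deficient mice and not in fat cells alone. The paper states that the WT and the deficient mice were bred separately. A difference between the breeding colonies and the loss of ASK1 therefore cannot be told apart in any genotype ratio given here. With 1 pool per condition the spread between mice is unknown, and no test was made between genotypes within a tissue. Between 28985 and 33389 probes per array were well above background, and no spot was saturated. The signal is the scanner software's intensity per spot, and for all ratios it was divided by the 75th percentile of its array, which lay between 356 and 673. Map3k5, the gene of ASK1, gave signals of 448 (WT) and 117 (ASK1-deficient) in iBAT and of 701 and 194 in eWAT at one of its 2 probes. At the other probe the log2 ratios, ASK1-deficient over WT, were -0.06 and -0.51, so the labels are borne out by the first probe only. Brown adipocyte markers separated the tissues as labelled, since 13 of 13 tested were higher in iBAT. Of 8 epididymal epithelium markers 7 were not well above background on any array.

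The probes on which the results turn are shown by the first 30 of their 60 bases, 5′ to 3′, with their position in mm9. The Slc2a5 probe is shown for its opposite values in the 2 fats, the Slc2a4 probe because it was printed on 10 spots, both Slc2a6 probes because they disagreed, and the Slc2a2 probe because it was measured in eWAT only.
Slc2a5, chr4:149517775-149517834, plus strand: aggccatttgcgaagacacactgagcgtgg
Slc2a4, chr11:69756073-69756132, minus strand: gttttgaagaacggatagggagcagaaacc
Slc2a6, chr2:26878631-26878690, minus strand, from transcript base 1202: tgtggagatcgtgaccctgggggacacagc
Slc2a6, chr2:26876891-26876950, minus strand, from transcript base 2070: acctctagtctgccaactgttcactgtttt
Slc2a2, chr3:28627016-28627075, plus strand: tagtttctttgatgtattttgcaaggttaa
The other members had 1 probe each, and all but the Slc2a4 probe were printed on 1 spot. No annotation of mm9 was used, so exons and UTRs were not assigned.

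Slc2a5, the fructose transporter, gave a signal in iBAT of 2465 for the WT and 849 for the ASK1-deficient pool, and in eWAT of 103 and 195. The WT iBAT pool was the highest and the WT eWAT pool the lowest, with both ASK1-deficient pools in between. The log2 ratio, ASK1-deficient over WT, was -1.60 ± 0.20 in iBAT, which is 3.03-fold lower, and 1.01 ± 0.21 in eWAT, which is 2.01-fold higher. The error here is the scanner software's own estimate for the spots of both arrays and holds nothing of the variation between mice. In whole tissue, fewer cells of a type and less RNA per cell cannot be told apart, for this gene and for those below. Of 14059 genes measured in both tissues, 12 differed by at least 2-fold in opposite directions. Of these, 2 were lower in iBAT and higher in eWAT, with Slc2a5 itself counted among them. The eWAT value lay just at the 2-fold line: it was 0.70 with normexp background correction and 0.92 without scaling.

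**Figure D1:**
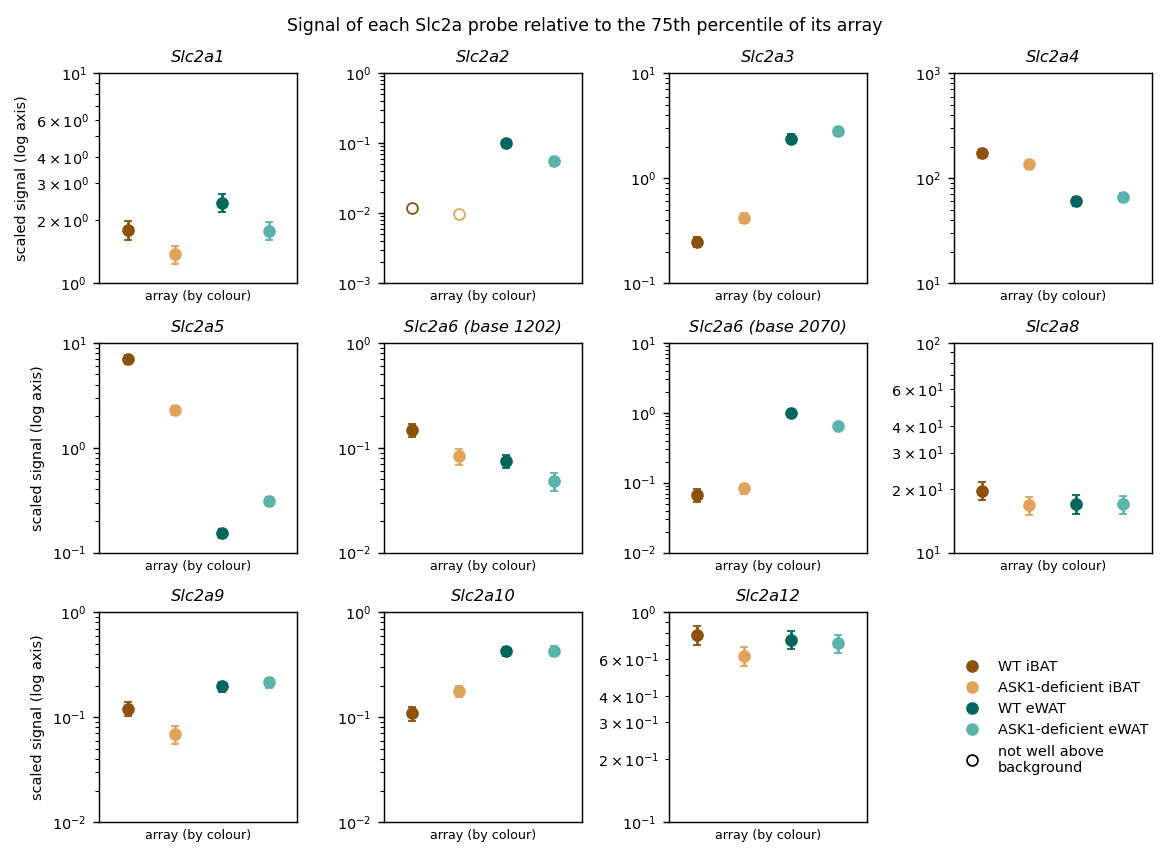
Signal of each Slc2a probe divided by the 75th percentile of its array (log axis, 1 panel per probe, 1 point per array, colours give genotype and tissue). Bars are the scanner software's error, left out for open points, which are not well above background; Slc2a5 spans from 103 to 2465 in signal before scaling.

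Slc2a4 encodes GLUT4, the insulin-responsive transporter. Its mean signal over 10 spots per array in iBAT was 61180 for the WT and 50834 for the ASK1-deficient pool (9 usable spots), and in eWAT 40481 and 41713. Single spots ran from 58531 to 62260 in WT iBAT and from 49959 to 52595 in ASK1-deficient iBAT, without overlap, whereas those of WT eWAT (39421 to 42136) and ASK1-deficient eWAT (40122 to 42922) overlapped before scaling. The coefficient of variation over spots was between 1.71% and 2.30%. The ASK1-deficient over WT log2 ratio came to -0.33 (iBAT) and 0.13 (eWAT), and the SD of the ratio between spots was 0.03 (n = 9) and 0.04 (n = 10). Both ratios were larger than the spread between spots, which is technical and says nothing of the mice. The eWAT ratio was smaller than the software error of 0.20, and it was 0.04 without scaling and 0.06 with quantile normalization. The median log2 ratio of all genes was -0.07 in iBAT and 0.02 in eWAT.

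Slc2a1 encodes GLUT1, the basal glucose transporter. In iBAT its signal was 636 for the WT and 508 for the ASK1-deficient pool, and in eWAT 1630 and 1124. The ASK1-deficient pool was lower in both fats by similar amounts, with a ratio of -0.38 ± 0.20 (iBAT) and -0.45 ± 0.20 (eWAT) on the log2 scale.

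Slc2a3 encodes GLUT3, a high-affinity glucose transporter best known from neurons and also found in white blood cells. Its iBAT signal was 88.4 for the WT and 155 for the ASK1-deficient pool, and its eWAT signal 1601 and 1785. The ASK1-deficient pool was higher in both tissues, with log2 ratios of 0.75 ± 0.22 in iBAT, or 1.68-fold, and 0.24 ± 0.20 in eWAT. With normexp the iBAT value was 0.35. The macrophage markers had log2 ratios above 0 for 10 of 11 genes in iBAT, with a median of 0.72, and below 0 for 11 of 12 in eWAT, with a median of -0.09. Their summed scaled signal was 42.9 (WT) and 54.1 (ASK1-deficient) in iBAT, and 157 and 146 in eWAT. Neutrophil markers summed to between 5.98 and 7.65 on the 4 arrays, with Cxcr2, Mmp8 and Ngp not well above background on any. The part of these cells in the Slc2a3 values was not tested.

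Slc2a2 encodes GLUT2, the glucose transporter of liver cells and insulin-producing cells. Its signal in iBAT was 4.24 and 3.57 for the WT and ASK1-deficient pools, neither well above background, and in eWAT it was 68.2 and 34.9. The log2 ratio in eWAT was -0.88 ± 0.28, which is 1.84-fold lower, and with normexp it was -0.46. In the same pools 12 of 12 hepatocyte markers were well above background in WT eWAT and 8 of 12 in ASK1-deficient eWAT, where Apoh, Fga, Fgb and Ttr were not. Their summed scaled signal in eWAT was 46.7 (WT) and 15.4 (ASK1-deficient), against 13.6 and 14.8 in iBAT. All 8 markers measured in both eWAT pools had a ratio below 0, with a median of -3.33. The part of liver transcripts in the Slc2a2 value was not tested.

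Slc2a6 encodes GLUT6, a transporter of inner membranes, and its 2 probes gave different pictures. At the probe from base 1202 the signal was 52.6 (WT) and 30.9 (ASK1-deficient) in iBAT and 50.1 and 30.3 in eWAT, so both ASK1-deficient pools were lower and the tissues were alike in unscaled signal. At the probe from base 2070 it was 24.0, 30.8, 662 and 409 in the same order, so the eWAT pools stood far above those of iBAT. The log2 ratios at the first probe were -0.83 ± 0.32 in iBAT and -0.64 ± 0.34 in eWAT. At the second they were 0.30 ± 0.38 and -0.61 ± 0.20. The probes therefore shared the eWAT direction and not that of iBAT, and the gene means were -0.26 and -0.62. With normexp the means were -0.05 and -0.40.

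Slc2a8 encodes GLUT8, which is held mostly inside the cell. The WT and ASK1-deficient signals were 7026 and 6238 in iBAT and 11492 and 10769 in eWAT. Its log2 ratios were -0.23 (iBAT) and -0.01 (eWAT), the latter with a sign that turned in 2 of 9 alternative settings. Slc2a12 encodes GLUT12, and the WT and ASK1-deficient pools gave 278 and 229 in iBAT and 498 and 450 in eWAT. Its log2 ratios were -0.34 and -0.06. Its probe lies 2.56 Mb from the nearer Map3k5 probe on chromosome 10, so DNA around the changed Map3k5 gene and the loss of ASK1 cannot be told apart for it.

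Slc2a10 encodes GLUT10, a member of inner membranes that carries dehydroascorbate. The WT pool gave a signal of 39.0 and the ASK1-deficient pool one of 65.6 in iBAT, with 287 and 272 in eWAT. The log2 ratio was 0.69 ± 0.28 in iBAT, where the signals were low and normexp gave 0.39, and 0.01 in eWAT, where the sign turned in 2 of 9 alternative settings. Slc2a9 encodes GLUT9, the urate transporter. The WT pool gave 42.7 and the ASK1-deficient pool 25.8 in iBAT, with 132 and 136 in eWAT. The log2 ratio was -0.79 ± 0.36 in iBAT, which normexp brought to -0.20, and 0.13 ± 0.22 in eWAT.

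**Figure D2:**
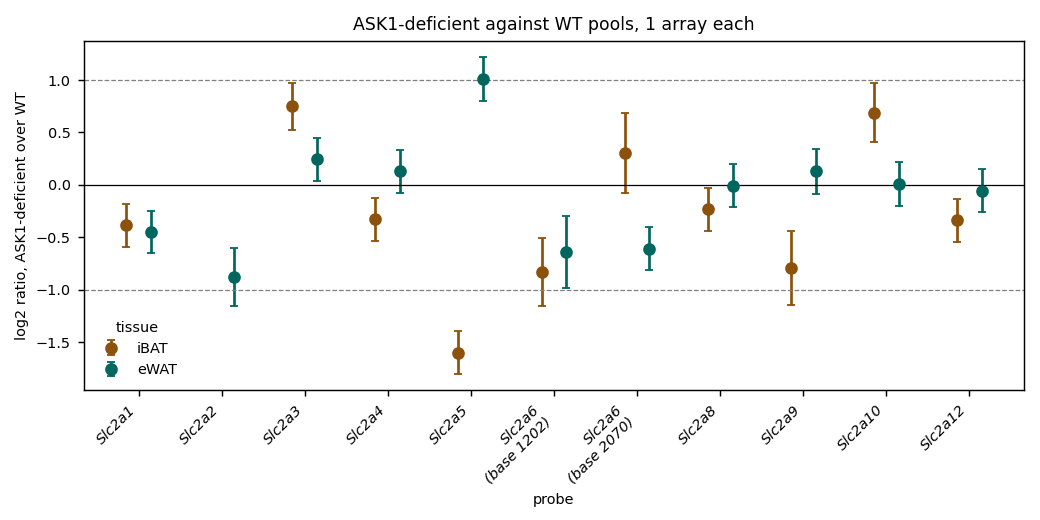
Log2 ratio of the ASK1-deficient over the WT pool at each Slc2a probe in iBAT and eWAT (bars: scanner software's error; dashed lines: 2-fold). Slc2a5 is the single probe past the dashed lines, at -1.60 in iBAT and 1.01 in eWAT, and Slc2a2 has no iBAT value.

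Over the family, 9 members were measured in iBAT, and 1 of them, Slc2a5, was at least 2-fold apart between genotypes, against 1.85% of the 14377 genes measured. In eWAT 10 members were measured and again 1, Slc2a5, passed 2-fold, against 1.15% of 15377 genes. Slc2a5 was the gene the family was selected on, so these counts are read no further. In iBAT 7 of 9 members lay below 0, with a median log2 ratio of -0.33, and 40.5% of all genes lay above 0. In eWAT 5 lay above and 5 below, with a median of 0.00, and 54.1% of all genes lay above 0. The direction differed between the fats for Slc2a4, Slc2a5 and Slc2a9 under every setting tried, though without a test, since a condition has 1 array. The eWAT ratios of Slc2a4 and Slc2a9 were smaller than their software errors.

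**Figure D3:**
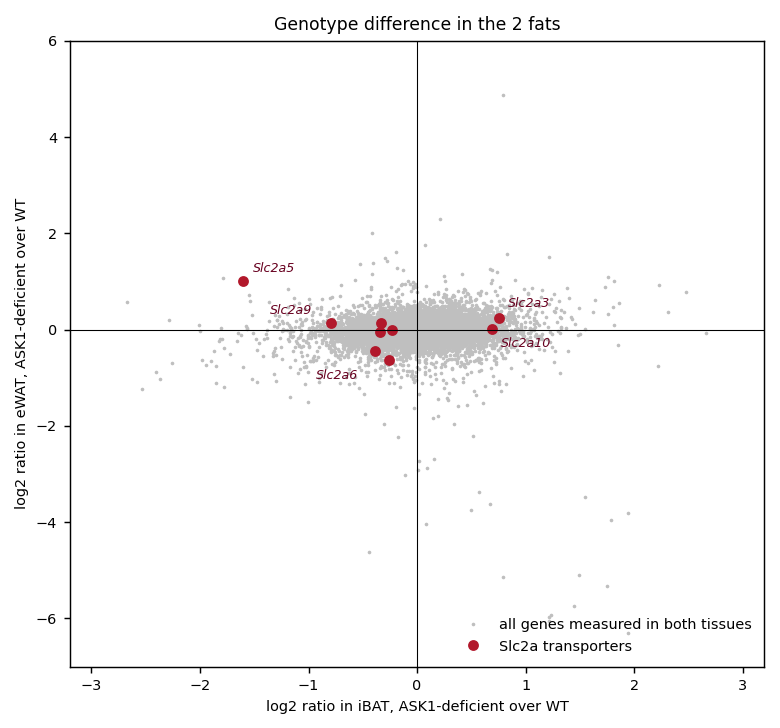
Log2 ratio, ASK1-deficient over WT, in iBAT (x axis) against eWAT (y axis) for the 14059 genes measured in both tissues (grey) and 9 Slc2a members (red, the 5 farthest from the centre named). Slc2a5 lies farthest of the members into the upper left, at -1.60 and 1.01.

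The comparison of brown with white fat used all 4 arrays, and its tissue differences did not enter the choice of the family. It was fitted with limma, with genotype as a covariate. The error of each gene therefore holds the difference between the genotype ratios of the 2 fats. There was 1 residual degree of freedom before the spread was shared among genes. For Slc2a5 the family was chosen by the difference between its genotype ratios, so its error and p-value are not independent of the choice. At an adjusted p under 0.05, 2 of the 9 members tested were higher in iBAT, against 30.8% of 14057 genes, and 4 were higher in eWAT, against 24.6%. With 9 members, nothing particular to the family is read from these counts. All values depend on the scaling of the arrays, since without scaling the median difference of all genes shifted by -0.85 on the log2 scale.

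Slc2a5 and Slc2a4 were the members higher in brown fat. For Slc2a5 the log2 difference, iBAT minus eWAT, was 4.2 ± 0.54 (SE; limma adjusted p = 0.00109), or 18.4-fold. It was 45.4-fold between the WT arrays and 7.43-fold between the ASK1-deficient arrays. For Slc2a4 the difference was 1.29 ± 0.17 (limma adjusted p = 0.00124), or 2.44-fold, with 1.52 between the WT and 1.06 between the ASK1-deficient arrays. With quantile normalization the Slc2a4 difference was 0.76, and without scaling it was 0.44. In the same arrays skeletal muscle markers were higher in iBAT for 10 of 10 genes tested, with a summed scaled signal of 1016 and 1017 in iBAT and of 10.2 and 5.40 in eWAT, WT first. Brown adipocyte markers summed to 4829 and 4115 in iBAT and to 62.4 and 26.1 in eWAT. The part of muscle fibres in the iBAT levels of Slc2a4, which muscle uses too, and of Slc2a5 was not tested.

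Slc2a3, Slc2a10, Slc2a6 and Slc2a9 were higher in white fat. Slc2a3 differed by -3.01 ± 0.18 (limma adjusted p = 5.9e-05), which is 8.03-fold higher in eWAT. Slc2a10 differed by -1.62 ± 0.20 (limma adjusted p = 0.000886), or 3.07-fold, and with normexp by -0.81. Of the macrophage markers, 10 of 11 tested were also higher in eWAT, and their part in the Slc2a3 difference was not tested. The mean of both Slc2a6 probes gave -1.26 ± 0.16 (limma adjusted p = 0.00107), but the probes went apart: between the WT arrays the one from base 1202 was higher in iBAT by 0.99 and the one from base 2070 lower by -3.87. With the brightest probe alone the gene differed by -3.41, and with normexp by -0.59. Slc2a9 differed by -1.17 ± 0.23 (limma adjusted p = 0.00657), and with normexp by -0.14 (adjusted p = 0.369). Without the ASK1-deficient iBAT array the Slc2a9 difference was -0.77. Without scaling the differences were -2.10 for Slc2a6, -2.02 for Slc2a9 and -2.47 for Slc2a10.

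Slc2a1, Slc2a8 and Slc2a12 did not pass. For Slc2a1 the difference was -0.41 ± 0.15 (limma adjusted p = 0.0539), and it passed in 4 of 14 alternative settings. Without scaling the Slc2a1 difference was -1.25. It was -0.18 without the WT eWAT array and -0.63 without the ASK1-deficient eWAT array. Leaving out the WT iBAT array gave -0.60, and leaving out the ASK1-deficient iBAT array gave -0.21. For Slc2a8 the main difference was 0.10 ± 0.15 (limma adjusted p = 0.614) and for Slc2a12 -0.06 ± 0.16 (limma adjusted p = 0.75). Without scaling, where all genes shifted towards eWAT, Slc2a8 (-0.75, adjusted p = 0.00539) and Slc2a12 (-0.91, adjusted p = 0.00329) passed too. Slc2a2 was not tested, because both iBAT arrays gave only a bound. From the bound it was at least 1.83-fold higher in eWAT than in iBAT between the WT pools and at least 1.18-fold between the ASK1-deficient pools.

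**Figure D4:**
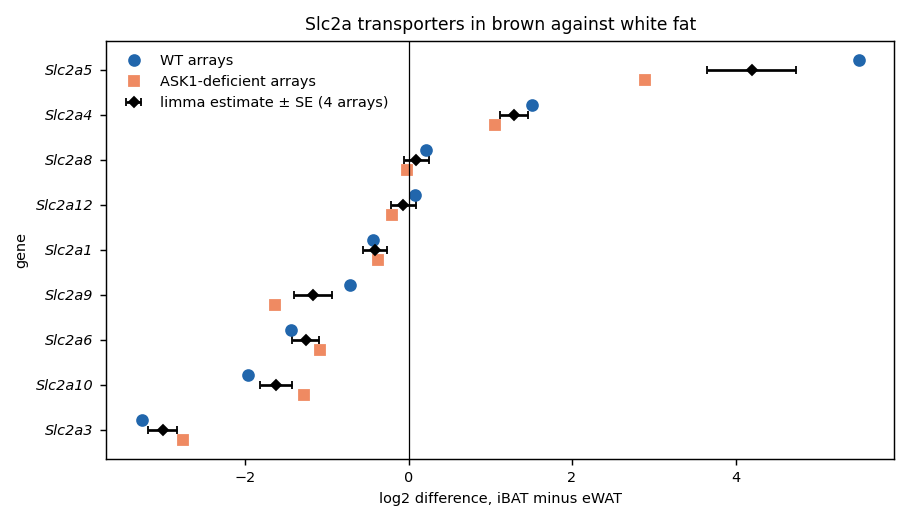
Log2 difference, iBAT minus eWAT, for the 9 Slc2a members tested, as the limma estimate ± SE over 4 arrays (diamonds) and between the WT arrays (circles) and the ASK1-deficient arrays (squares). Of the estimates plotted, in which Slc2a6 is the mean of 2 probes, Slc2a5 lies farthest to the brown side, at 4.2, and Slc2a3 farthest to the white side, at -3.01.

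The genes that work around these transporters were listed in 4 groups. Of 18 other sugar transporters, 12 were measured in each fat, and 0 were at least 2-fold apart between genotypes, with medians of -0.08 in iBAT and -0.04 in eWAT. Slc2a7 and Slc2a13 are given as the family members kept apart. Slc2a7, whose probe lies 24.7 kb from that of Slc2a5, was not well above background on any array. Slc2a13, the proton-coupled inositol transporter HMIT, stood at -0.22 in iBAT and -0.12 in eWAT, as log2 ratios. Between tissues, 4 of 11 other transporters were higher in iBAT and 4 in eWAT, to be read, as the counts of the groups below, against 30.8% and 24.6% of all genes. Slc2a13 was among the latter, at -3.17 ± 0.15 (limma adjusted p = 2.82e-05), or 8.97-fold.

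Of 19 genes of sugar phosphorylation and fructose handling, 15 were measured in iBAT and 14 in eWAT, and 0 were 2-fold apart, with medians of -0.06 and 0.01. Between tissues 4 of 13 tested were higher in iBAT and 3 in eWAT. Khk, the ketohexokinase that phosphorylates fructose after its uptake, had genotype log2 ratios of 0.00 (iBAT) and -0.07 (eWAT), and was higher in iBAT by 1.01 ± 0.15 (limma adjusted p = 0.00168). Hk2, the hexokinase of insulin-responsive tissues, had ratios of -0.56 and -0.13 and was higher in iBAT by 1.45 ± 0.17 (limma adjusted p = 0.000703). Khk and Hk2 were picked after their values were seen. Gckr, the liver regulator of glucokinase, had signals of 32.4 and 40.5 in iBAT and of 108 and 13.6 in eWAT, WT first, and so was at least 4.91-fold lower without ASK1 in eWAT. The hepatocyte markers were lower in the same pool, as given above, and the part of liver transcripts in the Gckr value was not tested.

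Of the genes of GLUT4 vesicle traffic, which store GLUT4 and bring it to the surface, 26 were measured in iBAT and 27 in eWAT, and 0 were 2-fold apart. In iBAT 17 of 26 lay below 0, with a median of -0.10, and in eWAT 22 of 27 lay above 0, with a median of 0.06. All genes had medians of -0.07 in iBAT and 0.02 in eWAT, and 40.5% and 54.1% of them lay above 0. Between tissues 7 of 26 were higher in iBAT and 6 in eWAT.

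Of the genes that control the amount of the transporters, 15 were measured in each fat. In iBAT 14 lay below 0, with a median of -0.24, and 1, Txnip, was at least 2-fold higher, beside 1.85% of all genes 2-fold apart, 40.5% above 0 and a median of -0.07. In eWAT 9 lay above 0 and 6 below, with a median of 0.08, beside 54.1% of all genes above 0 and a median of 0.02. Txnip encodes a protein that removes GLUT1 and GLUT4 from the cell surface and is itself induced by glucose. At one of its 2 probes the WT and ASK1-deficient signals were 12316 and 30732 in iBAT and 30319 and 50715 in eWAT. At the other they were 1768 and 5235 in iBAT and 4810 and 8375 in eWAT. Both probes were higher in the ASK1-deficient pool of both fats, by 2.39-fold and 2.84-fold in iBAT and by 1.78-fold and 1.85-fold in eWAT. Between tissues 6 of 15 genes of this group were higher in iBAT and 3 in eWAT.

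**Figure D5:**
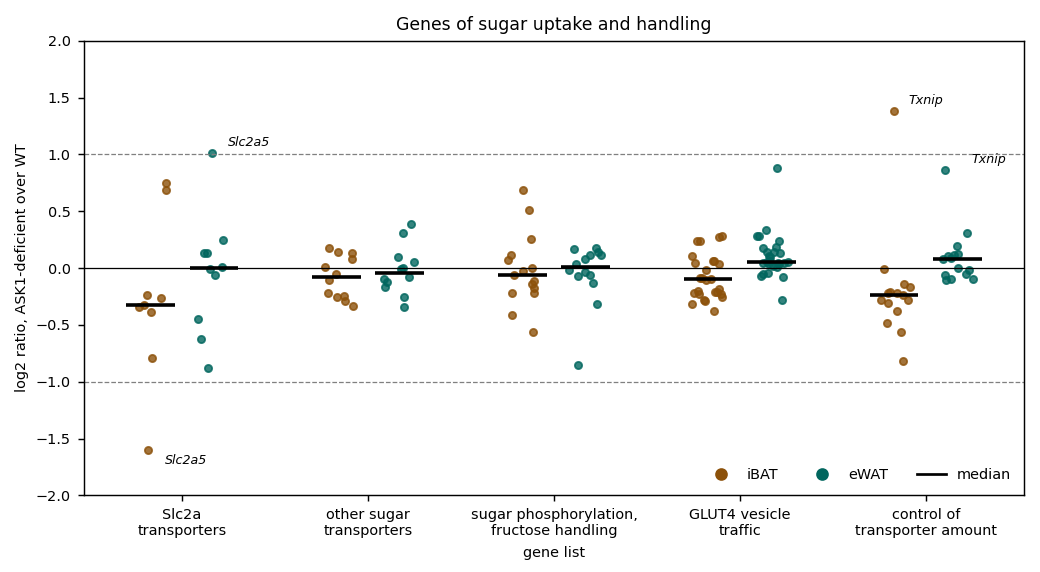
Log2 ratio, ASK1-deficient over WT, of the Slc2a members and of 4 groups of genes around them, in iBAT and eWAT (1 point per measured gene, spread sideways to be seen; black lines: medians; dashed lines: 2-fold). Txnip and Slc2a5 are the genes past the dashed lines, Txnip at 1.38 in iBAT.

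The genes whose 4 array values were most like those of Slc2a5, by Euclidean distance of the log2 values after each gene was centred on its mean, were Fbp2 (distance 0.63), Nr4a2 (0.88), Ppp1r27 (0.91), Mreg (0.95) and Rap1gap (1.02). Fbp2, the muscle form of fructose bisphosphatase, had log2 ratios of -0.99 (iBAT) and 0.63 (eWAT) and was higher in iBAT by 4.56. In the same order the ratios were -1.81 and 0.03 for Nr4a2 and -0.57 and 0.25 for Ppp1r27. They were -0.39 and 0.46 for Mreg and -0.70 and 0.20 for Rap1gap. These genes were higher in iBAT by 3.67 (Nr4a2) to 4.76 (Rap1gap), so the tissue difference weighs most in the distance. The genes most like Slc2a4 were much closer, with Zswim7 at 0.03, Mtor at 0.04, Mapre3 at 0.04, Prkaa2 at 0.05 and Mgmt at 0.05. Both sets describe 4 arrays and were not tested.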

How the data were processed

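RNA of 4 pools was hybridized to 1 array each. The authors deposited the scanner output of Agilent Feature Extraction 10.7.3.1, whose processed signal is an intensity with background removed and no scaling between arrays. The authors also deposited a series table, whose signal equals that intensity divided by 1 constant per array so that the median is 1; its rows were matched by feature number. The sources used here name no normalization or test. Arrays were assigned by their labels.

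Control and outlier spots were left out, log2 was taken, spots of a probe were averaged and the 75th percentile was subtracted. A gene's ratio averages those of its probes that both arrays marked as well above background. Where 1 array did not, a bound was taken from the bright level and, on the dim array, the lowest level so marked, or the dim probe's own where that was higher. Of 34844 gene names, 22147 matched the RefSeq table (GRCm38.p6, names only), giving 22066 genes. Probe positions are on mm9. Of the genes listed, 3 were not on the array.

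Tissues were compared with limma 3.58.1 (R 4.3.3), for genes whose probe was so marked on all 4 arrays, with Benjamini-Hochberg adjustment over all of them. On simulated data over 14057 genes this recovered 200 of 200 changed genes (log2 value of 2) and called 14 unchanged ones. The simulated noise was the technical spread between spots alone, without differences between pools. The simulation therefore checks the running of the fit and not its precision on these pools. Precision is limited by the number of arrays. The p-values rest on 4 pools with 1 residual degree of freedom per gene, moderated by the spread of other genes. They hold no spread between replicate pools or between mice. The labels do not say whether the iBAT and eWAT pools of a genotype came from the same mice, so the pools may not be independent. Members and lists were chosen with earlier results of these data known. Named were all members, Map3k5, list genes at least 2-fold apart (1 of them is not reported here) and the 5 genes nearest to Slc2a5 and to Slc2a4. Slc2a7, Slc2a13, Khk and Hk2 were named outside this rule, after their values were seen. Alternatives were normexp (offset 50), quantile, no scaling, 2 other centrings, the series table, filters on dim probes, the brightest probe, 1.5-fold, every gene name, no genotype term, and leaving out an array. Python 3.11.15 was used.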

Additional observations from a re-analysis of the deposited data

Results flagged for a closer look

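In 3 of the 9 members measured in both fats, the genotype values lay on opposite sides of 0. Of all genes, 40.5% lay above 0 in iBAT and 54.1% in eWAT. The share of all genes on opposite sides was not counted. The log2 ratio, ASK1-deficient over WT, of Slc2a5 was -1.60 in iBAT and 1.01 in eWAT, and it was this gene for which the family was chosen. That of Slc2a4 was -0.33 ± 0.20 (software error) in iBAT and 0.13 ± 0.20 in eWAT. That of Slc2a9 was -0.79 ± 0.36 in iBAT and 0.13 ± 0.22 in eWAT. Both eWAT values were smaller than their errors. With 1 array per condition the difference between the fats was not tested for any of them.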

How the results depend on the processing

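The signs of the members' genotype ratios held under each alternative, save those of Slc2a8 and Slc2a10 in eWAT. For Slc2a5 the iBAT ratio was -1.45 with quantile normalization and -1.50 with the percentile over probes detected on all 4 arrays, and the eWAT ratio was 0.70 with normexp and 0.92 without scaling. The number of members 2-fold apart in eWAT was 0 with normexp, without scaling and with that percentile, and at 1.5-fold it was 3 in eWAT and 4 in iBAT. Genes 2-fold apart in iBAT numbered 106 with normexp, 1127 without the filter on dim probes and 1262 at 1.5-fold, instead of 266. In eWAT they numbered 60, 1036 and 622, and 114 with probes detected on all 4 arrays, instead of 177. The share of these genes that was higher in ASK1-deficient iBAT was 45.1%, and 61.8% with the percentile over those probes, which shifted all iBAT ratios by 0.10, 32.6% with median centring and 31.7% with the series table. In eWAT it was 24.9%, and 41.7% without the filter. Between tissues, 55.6% of the genes called were higher in iBAT and 11.8% without scaling. Leaving out 1 array, which also dropped the genotype term, gave 4913 to 8656 genes between tissues, instead of 7799, or 7848 over all arrays without that term: 4913 without WT eWAT and 5162 without ASK1-deficient eWAT. The same 6 members were called each time an array was left out. For Slc2a8 the tissue difference turned to -0.12 with quantile normalization, -0.75 without scaling and -0.0196 without the WT iBAT array. For Slc2a12 it turned to 0.0011 with normexp and 0.11 without the ASK1-deficient iBAT array. Without scaling it was -0.91, and both genes then passed. The cause of these shifts was not tested. By replicate number, no paired analysis was possible because each condition has 1 array; the tissue fit pairs the arrays by genotype instead, through its covariate. Slc2a2, Slc2a6, Slc2a9 and Slc2a10 had iBAT signals below 100 on both arrays, and Slc2a3 on the WT array, so background limits these values.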
